A study of Mus musculus with 12 samples.

Results

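The transcriptional regulators of brown fat examined here are 10 genes for factors and coactivators of brown adipocyte identity that are not nuclear receptors, namely Ppargc1a, Ppargc1b, Prdm16, Ebf2, Zfp516, Irf4, Cebpa, Cebpb, Cebpd and Zbtb16. They were taken by name from a table of 61210 genes. Of the 10, 9 had a row in the table and 8 were expressed highly enough to be tested, among 16737 genes tested in all. The level of Cebpb was not analysed here, and Cebpd held 0 to 6 counts per library.

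Total RNA was sequenced from the brown adipose tissue (iBAT) of wild type C57BL/6N mice that were 20 weeks old. The study's methods spell out iBAT as interscapular brown adipose tissue, whereas the deposited description of the series calls it inguinal. One diet group stayed on control diet (NCD) and the other received a high-fat diet (HFD) for 12 weeks from the age of 8 weeks, and each diet group gave 3 libraries at room temperature (RT) and 3 after 24 h at 4 °C. The mice of the 4 groups were all wild type. The labels put replicates 1 and 2 of each group in batch 1 and replicate 3 of each group in batch 2, without saying what a batch is. They speak of triplicates and do not state that each library is a separate animal, so that p-values measure the spread between libraries. The 12 libraries held 15136861 to 46740702 estimated counts, with medians of 18240838 in batch 1 and 40328346 in batch 2. Values are given as CPM, the count scaled to the library total after TMM normalisation, and a gene was called at an adjusted p under 0.05 (quasi-likelihood test of edgeR, Benjamini-Hochberg adjustment over all genes tested) together with a log2 fold change over 0.5 in size. In a bulk tissue, fewer cells of a type and less RNA per cell cannot be told apart.

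Brown adipocytes burn fatty acids to make heat, and their identity rests on a small network of nuclear proteins. PRDM16 and EBF2 establish and maintain the brown gene programme together with C/EBP proteins and PPARG. Cold acts through noradrenaline and cAMP, and the coactivator PGC-1α, the product of Ppargc1a, is the best known target of that signal. PGC-1α drives mitochondrial genes and Ucp1 with partners such as IRF4.

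Cell type markers gave the frame for these genes. The summed level of 6 brown adipocyte markers (Ucp1, Cidea, Cox8b, Cox7a1, Elovl3 and Ppara) was 6387 to 8053 CPM in the NCD libraries at RT and 19760 to 23130 CPM in those at 4 °C. On HFD it was 8697 to 11010 CPM at RT and 15270 to 18800 CPM at 4 °C. The 6 genes did not go together, since only Ucp1 and Elovl3 were called in the cold on each diet, and the median log2 fold change of the list was 0.60 on NCD and 0.22 on HFD. On HFD the mitochondrial subunit genes Cox8b and Cox7a1 had ratios of cold to RT below 1 in each replicate number, 0.541, 0.765 and 0.605 for Cox8b and 0.685, 0.887 and 0.817 for Cox7a1, and neither was called (log2 fold changes -0.64 and -0.33). Markers of skeletal muscle, a tissue that also expresses Ppargc1a, varied widely within groups. The summed level of the 10 muscle genes was highest in HFD at RT replicate 3 (19470 CPM), NCD at RT replicate 2 (17910 CPM) and NCD at 4 °C replicate 2 (9828 CPM), and lowest in HFD at 4 °C replicate 1 (631.3 CPM). The summed level was also lower at 4 °C than at RT in each same-numbered pair. The median log2 fold change of the 10 genes in the cold was -0.98 on NCD and -1.77 on HFD, with 0 called on either diet. All 10 muscle markers were detected in every library, and their mean level as a term in the fit changed no call of a regulator. Because the muscle level went with temperature, fits with this term cannot fully separate it from the cold. The 8 lymphocyte markers summed to 1.16 to 3.38 CPM, and 3 of them passed the filter on low counts.

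In the cold, Ppargc1a was the regulator with the largest rise on NCD, 4.75-fold, and 1 of 2 regulators whose levels at 4 °C lay above those at RT on both diets. The other was Zfp516, with smaller changes of 1.28-fold on NCD and 1.43-fold on HFD. The remaining 6 tested regulators were not called in the cold on either diet. Of the 8 tested regulators 1 was called in the cold on NCD (Ppargc1a), beside 6.27% of all genes tested. On HFD 1 was called (Zfp516), beside 9.58% of all genes, and averaged over the diets 1 was called (Ppargc1a), beside 12.7%. All of these calls were rises. The median log2 fold change of the 8 regulators was 0.43 on NCD and 0.04 on HFD, against -0.01 and -0.04 over all genes tested.

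**Figure D1:**
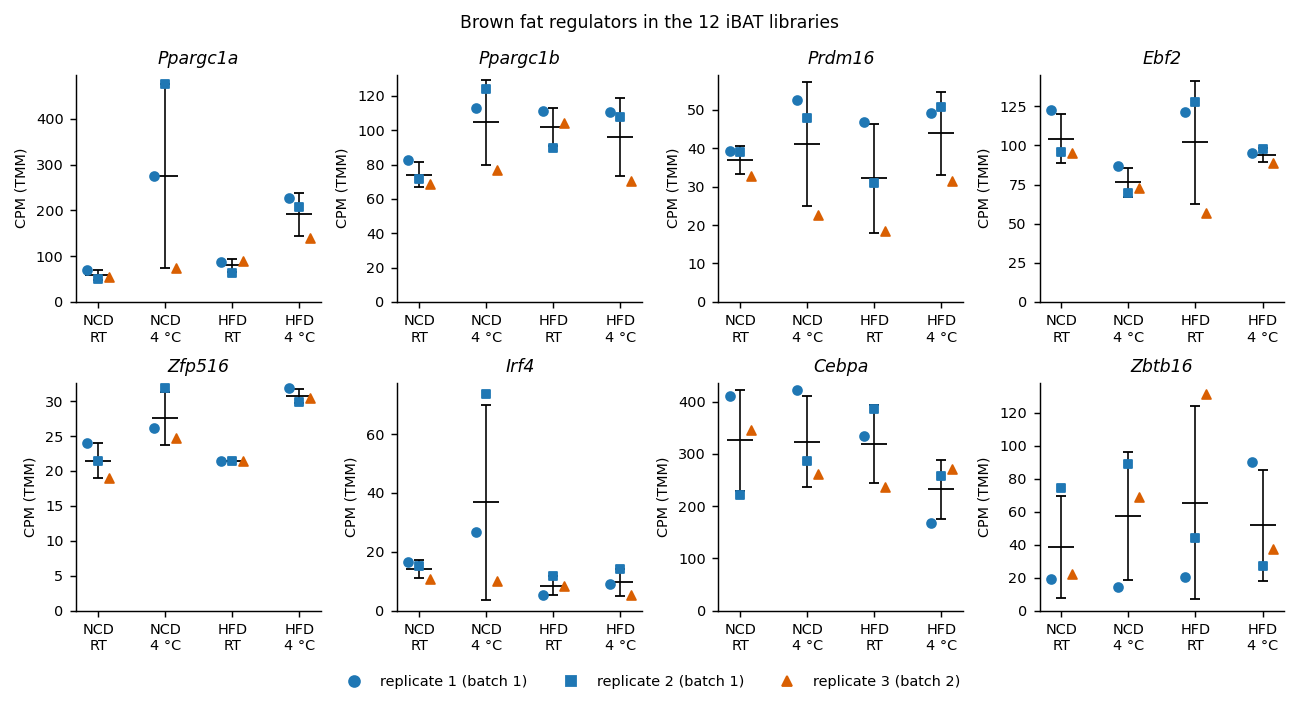
Level of each tested regulator in every library, in CPM, for the 4 groups. Each symbol is 1 library, with circles for replicate 1, squares for replicate 2 and triangles (batch 2) for replicate 3, and black lines give the mean and SD of 3 libraries. Ppargc1a reached 475.3 CPM in NCD at 4 °C replicate 2 and only 74.83 CPM in replicate 3 of that group, while the 6 libraries of Zfp516 at 4 °C lay above the 6 at RT.

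Ppargc1a (chromosome 5, 51454250 to 51567726, minus strand, GRCm38) is protein-coding and encodes PGC-1α, the coactivator that couples adrenergic signals to mitochondrial biogenesis. Because it was the regulator with the largest change in the cold, the 250 bases before its annotated start are shown (RefSeq, GRCm38.p6, minus strand, chr5:51567726-51567975). Capitals mark the letters of a cAMP response element half-site, the short sequence to which CREB binds, searched as TGACG on both strands. The promoter of Prdm16 (chr4:154636874-154637123, minus strand, the same assembly), a regulator that was not called in any comparison, was picked after its values were seen and follows for contrast.
Ppargc1a: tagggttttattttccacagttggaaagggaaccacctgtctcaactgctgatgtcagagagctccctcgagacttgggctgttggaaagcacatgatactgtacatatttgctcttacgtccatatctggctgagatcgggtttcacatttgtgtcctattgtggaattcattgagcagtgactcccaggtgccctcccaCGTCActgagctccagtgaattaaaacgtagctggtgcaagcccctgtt
Prdm16: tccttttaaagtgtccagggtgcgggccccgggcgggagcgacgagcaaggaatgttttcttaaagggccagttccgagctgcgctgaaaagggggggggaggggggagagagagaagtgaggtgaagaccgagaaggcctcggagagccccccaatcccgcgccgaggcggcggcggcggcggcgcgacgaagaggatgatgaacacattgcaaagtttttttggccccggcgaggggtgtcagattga

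The Ppargc1a window held 1 such half-site, from 49 to 45 bases before the start and on the reverse strand, and the Prdm16 window held 0. A half-site was found in 5836 of 32851 promoter windows of the same length (17.8%). The full element TGACGTCA, which contains the half-site, was in neither window and in 1.55% of all windows. The C/EBP sequence TTGCNNAA, also searched on both strands, was likewise in neither, against 9.56% of all windows. RefSeq promoters were searched for 5 of the 10 regulators. Genes on chromosome 18, Ppargc1b and Zfp516, were not part of this search, so that no window is given for Zfp516, the other regulator called in the cold. The Cebpb window held 3 half-sites, and those of Cebpa and Irf4 held 0. These matches describe the letters in each window only, and the counts per gene do not separate transcripts from different promoters.

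On NCD, Ppargc1a had 70.48, 49.46 and 53.54 CPM in replicates 1 to 3 at RT and 274.2, 475.3 and 74.83 CPM at 4 °C. The groups did not overlap, but the lowest library at 4 °C lay only just above the highest at RT, and the libraries at 4 °C differed 6.35-fold among themselves. The means were 57.83 ± 11.15 and 274.8 ± 200.2 CPM (SD, n = 3 each), with a log2 fold change of 2.25 (SE 0.50, edgeR adjusted p = 0.0202). On HFD, Ppargc1a had 86.39, 63.67 and 89.82 CPM at RT and 227.6, 207.0 and 138.9 CPM at 4 °C. These groups did not overlap either, and the log2 fold change was 1.26 (SE 0.48, edgeR adjusted p = 0.116). Averaged over both diets, it was 1.75 (SE 0.34, edgeR adjusted p = 0.00447). An exact permutation test of the cold effect within diet (two-sided, 400 arrangements, not adjusted) gave p = 0.005 for Ppargc1a, the smallest p it can give. That p follows from the lack of overlap in the same direction on both diets, and its share over all genes was not counted. Apart from Zfp516, the other tested regulators had p from 0.26 (Ebf2) to 0.82 (Zbtb16) in the permutation test. Without NCD at 4 °C replicate 2 the log2 fold change on NCD was 1.60 (edgeR adjusted p = 0.0723), and the call was also lost when any 1 of the NCD libraries at RT was left out (2.15 to 2.43, edgeR adjusted p = 0.0595 to 0.0837).

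Between the diets Ppargc1a did not pass the test. Its log2 fold change on HFD was 0.47 at RT (SE 0.48, edgeR adjusted p = 0.658) and -0.52 at 4 °C (SE 0.47, edgeR adjusted p = 0.577). The value at 4 °C was 0.13 without NCD at 4 °C replicate 2, and the ratio of HFD to NCD there was 0.58 in batch 1 and 1.86 in batch 2.

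The ratios of Ppargc1a within replicate numbers ranged widely. The ratio of the level at 4 °C to that at RT was 3.89 and 9.61 in the NCD pairs of replicates 1 and 2, which make up batch 1, and 1.40 in the pair of replicate 3, batch 2. On HFD the ratios were 2.63 and 3.25 in batch 1 and 1.55 in batch 2. On both diets, therefore, the smallest ratio came from batch 2. Ucp1, the uncoupling protein that makes the heat, had nearly equal ratios of 3.92, 4.04 and 3.72 on NCD, and on HFD its ratios of 1.46, 2.14 and 2.19 were largest in batch 2. Elovl3, a fatty acid elongase of brown fat, had its largest ratio in batch 2 on both diets, 8.49 on NCD and 9.08 on HFD. Dio2, the deiodinase that activates thyroid hormone, had ratios of 4.91, 13.3 and 5.45 on NCD and 7.75, 8.02 and 4.16 on HFD.

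Whether the cold effect differed between the batches was tested in a fit with batch and the product of batch and cold as terms, an alternative added once these values were known. The log2 fold change of Ppargc1a in the cold, averaged over the diets, was 2.11 (SE 0.31) in batch 1 and 0.66 (SE 0.42) in batch 2. The difference between the batches was -1.46 (SE 0.52, unadjusted p = 0.0213, edgeR adjusted p = 0.460), and it did not pass the threshold. Of all genes tested, 0 passed (0%), with 1655 at an unadjusted p under 0.05. The difference between the batches was 0.52 (SE 0.28) for Ebf2, 0.19 (SE 0.45) for Cebpa, -0.265 (SE 0.30) for Prdm16 and -0.84 (SE 1.38) for Zbtb16. Batch 2 holds 1 library per group and is sequenced more deeply. What else differed between the batches is not given in the sources used here, and the part of depth was not tested.

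**Figure D2:**
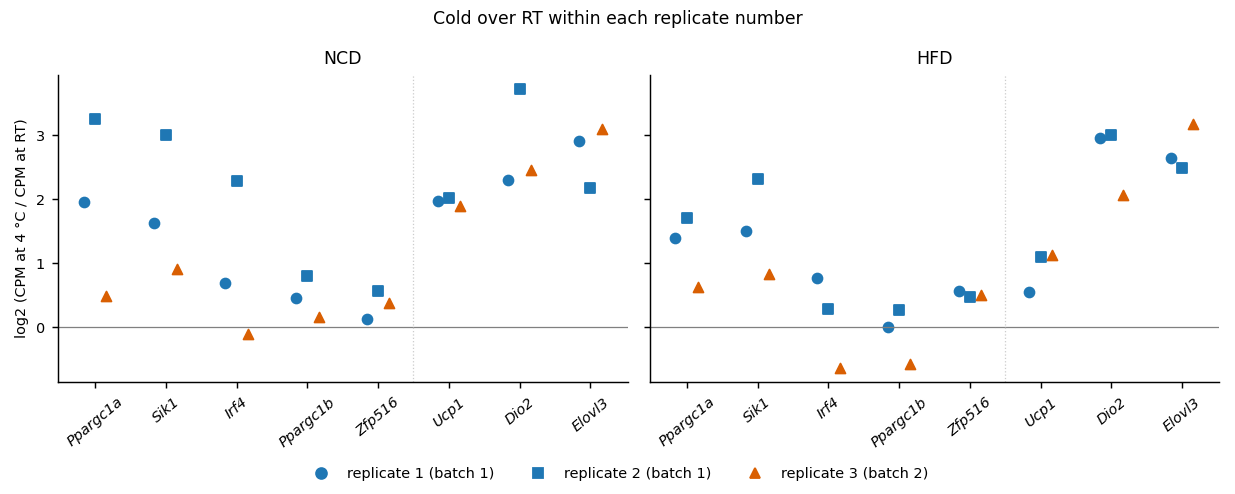
Log2 ratio of the level at 4 °C to the level at RT within each replicate number, for NCD (left) and HFD (right). Genes left of the dotted line are 4 regulators and Sik1, and those to its right are 3 thermogenic genes. For Ppargc1a, Sik1, Irf4 and Ppargc1b the triangle of replicate 3 is the lowest point on both diets, whereas for Elovl3 it is the highest. Prdm16, Ebf2, Cebpa and Zbtb16 are not shown. Their replicate 3 ratio was the highest for Ebf2 on both diets (-0.385 on NCD and 0.642 on HFD). It was the highest on HFD and the lowest on NCD for Prdm16 and Cebpa, and the reverse for Zbtb16. Sik1 is shown as the gene most like Ppargc1a over the 12 libraries, by which it was selected.

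Ppargc1b (chromosome 18, 61298136 to 61400431, minus strand) encodes PGC-1β, the relative of PGC-1α that sustains mitochondrial gene expression and is not known for a strong response to cold. It had 82.49, 71.32 and 68.65 CPM on NCD at RT and 112.7, 124.2 and 76.72 CPM at 4 °C, and the groups overlapped. On HFD it had 111.1, 89.75 and 104.4 CPM at RT and 110.8, 107.6 and 70.13 CPM at 4 °C. All 3 HFD libraries at RT lay above the 3 NCD libraries at RT, with a log2 fold change of 0.46 (SE 0.20, edgeR adjusted p = 0.260) that was not called. The log2 fold change in the cold was 0.50 on NCD (SE 0.20, edgeR adjusted p = 0.174) and -0.08 on HFD (SE 0.20, edgeR adjusted p = 0.825). In the fit with batch by cold, it was 0.37 in batch 1 and -0.21 in batch 2 (difference -0.58, SE 0.16, unadjusted p = 0.00496, edgeR adjusted p = 0.446).

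Set against each other per length of exon, the PGC-1 coactivators stood in another balance at 4 °C than at RT. The ratio of Ppargc1a to Ppargc1b, both in CPM per kb, was 0.517, 0.420 and 0.472 on NCD at RT and 0.471, 0.429 and 0.521 on HFD at RT. At 4 °C it was 1.47, 2.32 and 0.590 on NCD and 1.24, 1.16 and 1.2 on HFD. The 6 libraries at 4 °C therefore lay above the 6 at RT, and in 5 of them Ppargc1a exceeded Ppargc1b, the exception being NCD at 4 °C replicate 3. On HFD the ratios at 4 °C were close together although Ppargc1a itself was lowest in replicate 3, since Ppargc1b was lowest in that library as well.

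Prdm16 (chromosome 4, 154316125 to 154636873, minus strand) encodes the zinc finger coregulator that holds cells in the brown rather than the muscle or white state. It had 39.38, 38.94 and 32.79 CPM on NCD at RT and 52.69, 47.96 and 22.58 CPM at 4 °C. On HFD the values were 46.96, 30.89 and 18.58 CPM at RT and 49.34, 50.85 and 31.49 CPM at 4 °C. Replicate 3 was the lowest library of each of the 4 groups, and no comparison was free of overlap. The log2 fold change in the cold was 0.15 on NCD (SE 0.35, edgeR adjusted p = 0.870) and 0.45 on HFD (SE 0.35, edgeR adjusted p = 0.433). The spread of Prdm16 within groups was larger than that of 96.5% of the 2283 genes of similar level.

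Ebf2 (chromosome 14, 67233292 to 67430918, plus strand) encodes the early B cell factor that marks brown precursors and recruits PPARG to brown genes. It had 122.5, 95.61 and 95.07 CPM on NCD at RT and 87.09, 69.80 and 72.82 CPM at 4 °C. All 3 libraries at 4 °C lay below those at RT, but the log2 fold change of -0.45 was not called (SE 0.24, edgeR adjusted p = 0.325). On HFD the values were 121.2, 127.9 and 56.98 CPM at RT and 95.48, 97.70 and 88.91 CPM at 4 °C, and the groups overlapped because HFD at RT replicate 3 was low. That library also had the highest muscle marker level of the 12. The muscle markers' mean level, itself lower at 4 °C, was also set as a term in the fit. There Ebf2 had a log2 fold change of -0.62 in the cold on NCD (edgeR adjusted p = 0.0830). Averaged over the diets it had -0.46 (SE 0.15, edgeR adjusted p = 0.0490), which lies under the fold minimum. At 4 °C the 3 HFD libraries lay above the 3 NCD libraries (log2 fold change 0.30, SE 0.24, edgeR adjusted p = 0.527).

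Zfp516 (chromosome 18, 82910663 to 83005314, plus strand) encodes a zinc finger protein known as an activator of Ucp1 that is induced by cold. It had 24.01, 21.45 and 18.98 CPM on NCD at RT and 26.14, 31.84 and 24.67 CPM at 4 °C. On HFD it had 21.45, 21.48 and 21.43 CPM at RT and 31.92, 29.90 and 30.42 CPM at 4 °C. The 6 libraries at 4 °C lay above the 6 at RT, with the smallest spread of the regulators. The log2 fold change was 0.36 on NCD (SE 0.12, edgeR adjusted p = 0.0943) and 0.52 on HFD (SE 0.12, edgeR adjusted p = 0.0182). Averaged over the diets it was 0.44 (SE 0.084, edgeR adjusted p = 0.00385), which passed the p-value but not the minimum fold change. The exact permutation test within diet gave an unadjusted p = 0.005 for Zfp516, the smallest p possible, which likewise follows from the lack of overlap on both diets. In the fit with batch by cold, Zfp516 had log2 fold changes of 0.44 in batch 1 (SE 0.096) and 0.44 in batch 2 (SE 0.13). The call on HFD was lost without HFD at RT replicate 2 or 3 or HFD at 4 °C replicate 1 or 3, with log2 fold changes of at least 0.52 in all fits that left out 1 library.

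Irf4 (chromosome 13, 30749226 to 30766976, plus strand) encodes interferon regulatory factor 4, a partner of PGC-1α in brown adipocytes that is also abundant in lymphocytes and some macrophages. On NCD at 4 °C its highest library exceeded its lowest 7.41-fold, the widest such range of the 8 tested regulators. It had 16.61, 15.11 and 10.68 CPM on NCD at RT and 26.77, 73.80 and 9.966 CPM at 4 °C, and the groups overlapped because replicate 3 at 4 °C was the lowest of the 6. On HFD it had 5.411, 11.76 and 8.302 CPM at RT and 9.183, 14.27 and 5.314 CPM at 4 °C. The log2 fold change in the cold was 1.38 on NCD (SE 0.60, edgeR adjusted p = 0.201) and 0.16 on HFD (SE 0.60, edgeR adjusted p = 0.888). Without NCD at 4 °C replicate 2 it was 0.38 on NCD. The ratios of cold to RT were 1.61, 4.88 and 0.933 on NCD and 1.70, 1.21 and 0.640 on HFD, so that batch 2 again gave the lowest ratio on each diet. In the fit with batch by cold, the log2 fold change of Irf4 was 1.07 in batch 1 and -0.34 in batch 2, a difference of -1.40 (SE 0.65, unadjusted p = 0.0590, edgeR adjusted p = 0.514).

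Irf4 also had the largest difference between the diets of the 8 tested regulators at 4 °C and averaged over the temperatures, though not at RT, where Zbtb16 had 0.77. The log2 fold change on HFD was -0.73 at RT (SE 0.60, edgeR adjusted p = 0.565), -1.94 at 4 °C (SE 0.61, edgeR adjusted p = 0.0861) and -1.34 averaged over the temperatures (SE 0.42, edgeR adjusted p = 0.0599). None of these was called. With the replicate number as a block Irf4 was called at 4 °C (-1.74, edgeR adjusted p = 0.0488) and averaged over the temperatures (-1.24, edgeR adjusted p = 0.0272). With batch as a term it was called averaged over the temperatures (-1.24, edgeR adjusted p = 0.0411) and not at 4 °C (-1.83, edgeR adjusted p = 0.0592). The mean was 14.13 ± 3.083 CPM on NCD and 8.491 ± 3.179 CPM on HFD at RT, and 36.85 ± 33.09 and 9.589 ± 4.492 CPM at 4 °C (SD, n = 3 each). Within batch 1 the ratio of HFD to NCD was 0.541 at RT and 0.233 at 4 °C, and within batch 2 it was 0.777 and 0.533. Without NCD at 4 °C replicate 2 the log2 fold change averaged over the temperatures was -0.83, and without NCD at 4 °C replicate 3 it was -1.59, which was called. The 7 macrophage markers summed to 90.29 to 119.8 CPM on NCD at 4 °C and to 123.4 to 264.0 CPM on HFD at 4 °C, whereas Irf4 had its higher mean on NCD. The 6 adipocyte markers went the same way as Irf4, with sums of 13160 to 15390 CPM on NCD at 4 °C and 8148 to 10610 CPM on HFD at 4 °C, a median log2 fold change of -0.55 on HFD, 1 of 6 called and 5 of 6 at an unadjusted p under 0.05 in edgeR. The 8 lymphocyte markers summed to 1.16 to 3.38 CPM on NCD at 4 °C, with 1.71 CPM in replicate 2, where Irf4 was highest. The part of these cells in the level of Irf4 was not tested.

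Cebpa (chromosome 7, 35119293 to 35121928, plus strand) encodes C/EBPα, a factor of terminal fat cell differentiation. It had the highest level per length of the regulators. Its CPM values were 410.7, 220.4 and 346.2 on NCD at RT and 422.4, 286.8 and 261.8 at 4 °C. On HFD they were 334.3, 385.5 and 237.5 at RT and 168.2, 257.0 and 270.9 at 4 °C. The groups overlapped in all 4 comparisons, and the log2 fold changes in the cold were -0.01 on NCD (SE 0.28, edgeR adjusted p = 0.991) and -0.46 on HFD (SE 0.28, edgeR adjusted p = 0.314). Cebpa has 1 transcript of a single exon and 1 of several exons in GENCODE M21. Genes with a single exon are rarely found in the table. Of 1331 coding genes with a single exon in that annotation 14 had a row, against 20558 of 20620 with several exons, so that the Cebpa value may not cover all of its transcripts.

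Cebpd (chromosome 16, 15887286 to 15891031, plus strand) encodes C/EBPδ, which acts early in adipogenesis and, with C/EBPβ, responds to hormones. Its counts were 1, 3 and 6 on NCD at RT, 0, 4 and 2 on NCD at 4 °C, 1, 0 and 3 on HFD at RT and 3, 1 and 4 on HFD at 4 °C. A library with 0 counts allows up to 3, for counting error only. In GENCODE M21 Cebpd has 1 transcript of a single exon, 3746 bases long, and 1 of several exons, 430 bases long, and which of them its row covers is not given in the sources used here. No statement is made on whether Cebpb or Cebpd differed between the groups.

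Zbtb16 (chromosome 9, 48654297 to 48836222, minus strand) encodes PLZF, a zinc finger repressor that is known to respond to glucocorticoids and has been linked to the thermogenic programme. It had 19.35, 74.40 and 22.09 CPM on NCD at RT and 14.22, 88.69 and 69.10 CPM at 4 °C. On HFD it had 20.42, 43.96 and 131.6 CPM at RT and 90.30, 26.99 and 37.59 CPM at 4 °C. Within each group the highest library exceeded the lowest 3.35-fold to 6.44-fold, more than any group mean exceeded another. The log2 fold change in the cold was 0.58 on NCD (SE 0.81, edgeR adjusted p = 0.755) and -0.35 on HFD (SE 0.80, edgeR adjusted p = 0.813). The spread of Zbtb16 within groups was larger than that of 99.1% of the 2231 genes of similar level, and the direction on HFD turned when HFD at RT replicate 3 was left out (0.68). That library also held the most muscle transcripts. With the muscle level, itself lower at 4 °C, as a term the log2 fold change on HFD was 0.82 (edgeR adjusted p = 0.611).

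**Figure D3:**
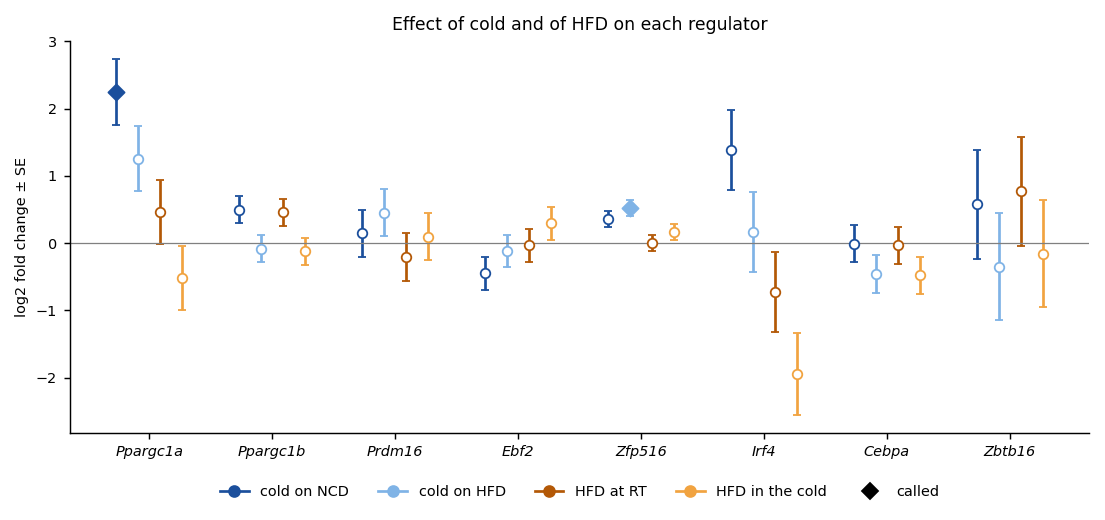
Log2 fold change of each tested regulator (y axis, with bars of 1 SE) in the cold on NCD and on HFD and on HFD at RT and in the cold, from 1 fit to 12 libraries. Filled diamonds mark the 2 calls, Ppargc1a in the cold on NCD (2.25) and Zfp516 in the cold on HFD (0.52), and the comparisons that share a group are not independent.

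HFD called 0 of the 8 regulators at RT, beside 2.09% of all genes tested, with 1 at an unadjusted p under 0.05 in edgeR's test (Ppargc1b) and 0 called by DESeq2. At 4 °C it called 0, beside 4.75% of all genes, with 1 at an unadjusted p under 0.05 (Irf4) and 1 called by DESeq2. Averaged over the temperatures it called 0, beside 7.8%, again with 1 at an unadjusted p under 0.05 and 1 called by DESeq2. The median log2 fold change of the regulators on HFD was -0.01 at RT and -0.14 at 4 °C, against 0.03 and 0.02 over all genes. The cold and the HFD comparisons share their control groups, so their values are set side by side only. The interaction, which tests whether diet altered the cold effect, called 0 of the 8 regulators, beside 0% of all genes, with 0 at an unadjusted p under 0.05 in edgeR's test and 0 called by DESeq2. For Ppargc1a the interaction was -0.99 (SE 0.67, edgeR adjusted p = 0.833) and for Irf4 -1.22 (SE 0.84, edgeR adjusted p = 0.833). A test for any difference among the 4 groups at an adjusted p under 0.001 called 0 of the 8, beside 2.55% of all genes, with 3 at an unadjusted p under 0.05 and 2 called by DESeq2. The smallest adjusted p values from edgeR's test were 0.0147 for Zfp516, 0.0161 for Ppargc1a and 0.0477 for Irf4.

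Without regard to tests, the libraries at 4 °C and RT on NCD did not overlap for 3 regulators, of which 2 were higher in the cold (Ppargc1a and Zfp516) and 1 was lower (Ebf2), beside 27.8% of all genes tested. On HFD 2 lay higher in the cold and 0 lower, beside 30.3% of all genes. HFD gave 1 without overlap at RT (Ppargc1b), beside 25.9%, and 1 at 4 °C (Ebf2), beside 25.2%. With 8 regulators, 1 gene more or less moves each share widely, and nothing is read from these counts.

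Compared per length, the regulators covered a wide range of levels. Dividing CPM by the length of the union of exons, Cebpa had 124.0 ± 36.7 CPM per kb (SD, n = 3) on NCD at RT, followed by Ppargc1b with 18.6 ± 1.84, Ebf2 with 15.1 ± 2.26 and Ppargc1a with 8.77 ± 1.69. Zbtb16 had 7.31 ± 5.87 CPM per kb, Prdm16 3.97 ± 0.395, Irf4 2.88 ± 0.629 and Zfp516 2.60 ± 0.304. The ranges of Ppargc1b and Ebf2 overlapped, as did those of Ppargc1a and Zbtb16, of Zbtb16 and Prdm16, and of Irf4 and Zfp516, whereas Cebpa stood clear of all others. On NCD at 4 °C Ppargc1a was second in this order with 41.7 ± 30.4 CPM per kb, but its range of 11.3 to 72.1 overlapped that of Ppargc1b. On HFD at 4 °C it was second with 29.0 ± 7.04 CPM per kb, again overlapping Ppargc1b (24.1 ± 5.67). Irf4 was the lowest tested regulator on HFD, with 1.73 ± 0.648 CPM per kb at RT and 1.96 ± 0.916 at 4 °C.

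**Figure D4:**
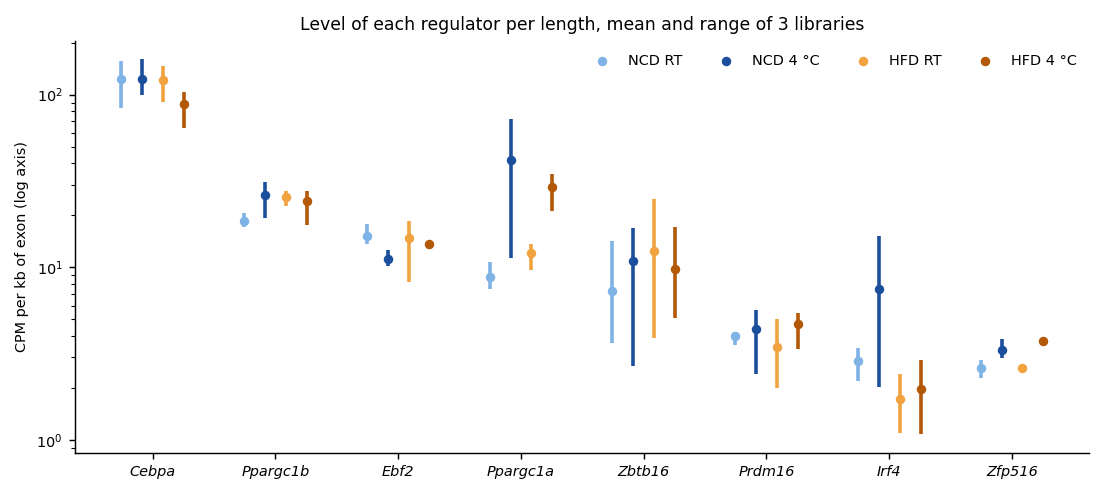
Level of each tested regulator in CPM per kb of exon, on a log axis, with points for the mean and lines for the range of 3 libraries in each of the 4 groups. Cebpa lies above all other regulators in each group, and on NCD at 4 °C the lines of Irf4, Ppargc1a and Zbtb16 are the longest (highest over lowest library 7.41, 6.35 and 6.24).

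The genes whose pattern over the 12 libraries was most like that of Ppargc1a were sought among 13945 genes with a mean over 1 CPM, by the root mean square difference of standardised log2 CPM. They were Sik1 (0.252), Zfp691 (0.254) and Irs2 (0.256). Sik1, a kinase gene induced by cAMP, rose in the cold on NCD with a log2 fold change of 1.97 (SE 0.47, edgeR adjusted p = 0.0270). Sik1 had ratios of cold to RT of 3.10, 8.05 and 1.88 on NCD and 2.84, 4.99 and 1.79 on HFD, the smallest being in batch 2 on both diets. Sik1 was picked for its likeness to Ppargc1a over these libraries, so that this order is no independent observation. Zfp691, a zinc finger gene, had smaller log2 fold changes of 0.66 on NCD and 0.59 on HFD and was not called. Irs2, the insulin receptor substrate, rose by a log2 fold change of 2.09 on NCD (SE 0.45, edgeR adjusted p = 0.0190) and 1.85 on HFD (SE 0.45, edgeR adjusted p = 0.0234). Nearest to Zfp516 were the noncoding gene QNCMUSG00059173 (0.289), Dhrs11 (0.303) and Pigr (0.313), with log2 fold changes in the cold of 3.51, 1.07 and 4.78 on NCD and 3.68, 1.07 and 6.28 on HFD.

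Other genes of the network were counted in lists. Beside the counts in the cold that follow, 6.27% of all genes tested were called on NCD and 9.58% on HFD. The lists are short, so that 1 gene more or less moves each share widely. Of 10 cAMP-responsive factors that act upstream of Ppargc1a, 2 were called in the cold on NCD, Sik1 and Crem, the cAMP-responsive modulator (log2 fold change 0.73, SE 0.14, edgeR adjusted p = 0.0104). On HFD 0 of them were called, with 2 at an unadjusted p under 0.05 and 1 called by DESeq2. The median of this list was 0.14 on NCD and 0.04 on HFD, and Creb1, the gene for CREB itself, had 0.10 and -0.04.

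Among 10 mitochondrial factors downstream of PGC-1, 4 were called in the cold on NCD, all of them higher. These were Esrra, the receptor ERRα through which PGC-1α works (0.68), Tfam, the packaging and transcription factor of mitochondrial DNA (0.65, edgeR adjusted p = 0.00150), Tfb1m, a mitochondrial rRNA methyltransferase (0.61), and Polrmt, the mitochondrial RNA polymerase (0.54). On HFD 1 of the 10 was called, Tfam (0.61, edgeR adjusted p = 0.00162), with 4 at an unadjusted p under 0.05 in edgeR's test. Esrra, Tfb1m and Polrmt were not called on HFD. Their ratios of cold to RT there were 1.27, 1.33 and 1.51 for Esrra, 1.49, 1.24 and 1.47 for Tfb1m and 1.3, 1.32 and 1.2 for Polrmt. The interaction of diet and temperature called 0 of the 10, with 2 at an unadjusted p under 0.05 in edgeR's test. The median of the list was 0.25 on NCD and -0.07 on HFD. Tfam had 66.05, 64.85 and 74.31 CPM on NCD at 4 °C against 41.8, 43.59 and 45.16 CPM at RT. Unlike Ppargc1a, Tfam was highest in replicate 3 at 4 °C, as was Esrra (196.1, 232.2 and 267.0 CPM). Tfb1m (15.19, 14.6 and 13.4 CPM) and Polrmt (67.77, 79.27 and 66.21 CPM) were lowest in that replicate, as was Ppargc1a.

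Of 12 thermogenic target genes, 6 were called in the cold on NCD and 5 on HFD, all of them higher. Those not called included Cox8b and Cox7a1, whose ratios of cold to RT on HFD lay below 1. The largest log2 fold changes of called genes on NCD were those of Dio2 (2.86), Elovl3 (2.69) and Ucp1 (1.96). On HFD they were those of Elovl3 (2.76), Dio2 (2.62) and Kcnk3, a potassium channel gene (1.57), and Ucp1 had 0.92. The list median was 0.67 on NCD and 0.71 on HFD.

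Of 15 tested family relatives (other PGC-1, PRDM, EBF, IRF and C/EBP genes) 0 were called in the cold on NCD, with 1 at an unadjusted p under 0.05 and 0 called by DESeq2, and 0 on HFD, with 2 and 0. Of 10 partners of PRDM16 and EBF2, 0 were called on NCD, with 3 at an unadjusted p under 0.05 and 0 by DESeq2, and 0 on HFD, with 4 and 1. Averaged over the diets, the cold called 1 of the 10 partners and 1 of the 15 relatives, beside 12.7% of all genes tested. Hlx, a homeobox partner of PRDM16, rose by a log2 fold change of 0.67 (SE 0.18, edgeR adjusted p = 0.020). The relative Irf2 fell, with a log2 fold change of -0.75 (SE 0.20, edgeR adjusted p = 0.0224). Of 8 tested repressors of the brown programme 0 were called in the cold on NCD, with 0 at an unadjusted p under 0.05 and 0 by DESeq2, and 0 on HFD, with 2 and 0. Rbl1, which encodes the retinoblastoma relative p107, was higher on HFD than on NCD at 4 °C (1.03, SE 0.25, edgeR adjusted p = 0.0408).

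Of 9 adipogenic factors, Pparg among them, 0 were called in the cold on NCD, with 2 at an unadjusted p under 0.05 and 1 by DESeq2, and 0 on HFD, with 0 and 0. Pparg itself had log2 fold changes of 0.14 on NCD and -0.04 on HFD. Of 11 glucocorticoid response genes 2 were called in the cold on each diet, both higher. They were Mt1, a metallothionein (1.30 on both), and Sgk1, a serum and glucocorticoid regulated kinase (1.26 on NCD and 1.15 on HFD). On NCD 6 of the 11 were at an unadjusted p under 0.05 and 5 were called by DESeq2, and on HFD 4 and 3. The list medians were 0.96 on NCD and 0.41 on HFD. Of 9 tested immediate early genes 0 were called on NCD, with 1 at an unadjusted p under 0.05 and 0 by DESeq2, and 0 on HFD, with 1 and 0. These unadjusted p-values are all from edgeR's test. Averaged over the diets, the cold called 1 of the adipogenic factors, 4 of the glucocorticoid response genes and 1 of the immediate early genes. All of these were higher in the cold, and 12.7% of all genes tested were called in that comparison.

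**Figure D5:**
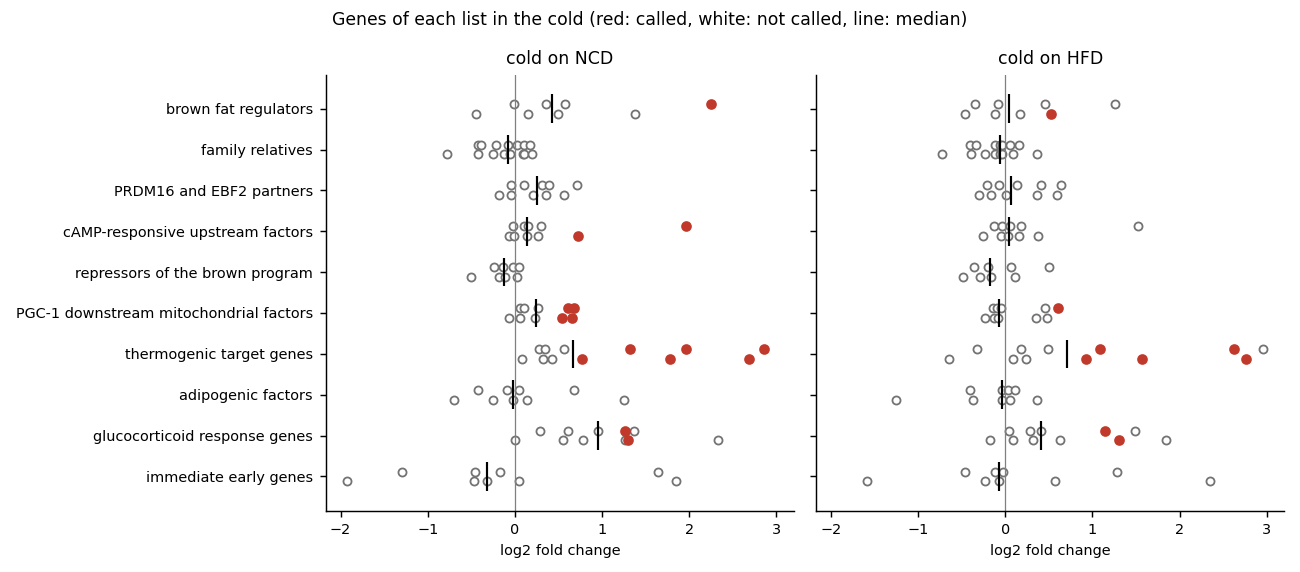
Log2 fold change in the cold on NCD (left) and HFD (right) of each tested gene of the lists, 1 circle per gene, red where called and white where not, with a line at the median of each list. Red circles stand to the right of 0 only, in the thermogenic targets (6 and 5), the mitochondrial factors downstream of PGC-1 (4 and 1), the glucocorticoid response genes (2 and 2), the cAMP-responsive factors (2 and 0) and the brown fat regulators (1 and 1).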

How the data were processed

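Reads of rRNA-depleted total RNA were trimmed with cutadapt and assigned to transcripts by salmon. The paper's methods name GENCODE M22, alone or together with RNAcentral 5, and for these libraries the paper states that the union of both was used. The authors deposited estimated counts, which are whole numbers and not normalised. Whether strand was used in counting is not given in the sources used here. Genes were kept with filterByExpr (minimum count 10) and tested with edgeR 4.0.16 in R 4.3.3 (TMM, quasi-likelihood, 4 group means, 12 libraries, no batch term), and CPM on a log scale used a prior count of 2. The steps were tested on simulated data. Coordinates are those of GENCODE M21 on GRCm38, and CPM per kb used the union of exons.

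The regulators and lists were chosen with earlier results of these data known. The text names all regulators and the 3 nearest genes of each regulator called in the cold. From each list and comparison it names at most 3 called genes with the largest fold change. Polrmt, Creb1, Pparg, Cox8b and Cox7a1 were added after values were seen, as were the values by replicate of Ucp1, Dio2, Elovl3, Esrra and Tfb1m. Alternatives were DESeq2 1.42.0, its size factors, other filters, batch, replicate number or muscle level as a term, batch 1 alone, the 6 libraries compared, no minimum fold change, the longest transcript as length, a prior count of 0.5 and each library left out. Same-numbered libraries at RT and 4 °C deviated together within a diet (r of 0.155 to 0.456 across genes in 6 pairs), with no stated source of the pairing.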

Additional observations from a re-analysis of the deposited data

How the results depend on the processing

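Ppargc1a in the cold on NCD was called under the alternatives except with only the 6 libraries compared, which left 0 regulators called (2.26, edgeR adjusted p = 0.0628), and leaving out 1 library gave 0 to 1. In the cold on HFD 2 regulators were called with all genes that had a count and with only the 6 libraries compared, since Ppargc1a joined Zfp516, and 0 to 2 when 1 library was left out. In batch 1 alone Ppargc1a was called on HFD (1.54, edgeR adjusted p = 0.0465) and Zfp516 was not (0.53, edgeR adjusted p = 0.0881). On HFD in the cold 1 regulator, Irf4, was called with all genes that had a count, with a replicate block and by DESeq2, and 0 to 1 with 1 library left out. Averaged over the temperatures it was 1 with these settings and with batch as a term, and 0 to 1 with 1 library left out. Averaged over the diets the cold called 2 without a minimum fold change, 0 in batch 2 of the fit with batch by cold (chosen after the data had been seen), and 1 to 2 with 1 library left out. The test of any difference gave 1 with all genes that had a count, 2 by DESeq2, and 0 to 1 with 1 library left out. The replicate block within diet changed no call of a regulator in the cold, and no called regulator changed direction under any alternative.

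Over all genes, DESeq2 called 828 against 349 for HFD at RT, 1321 against 795 for HFD in the cold, 64 against 0 for the interaction and 2625 against 427 for any difference. Batch 1 alone called 352 against 1049 and 416 against 1603 in the cold on NCD and HFD.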

Other observations

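Zbtb16 varied between libraries of a group in an order that Fkbp5, a glucocorticoid-induced chaperone gene, shared. Fkbp5 was chosen after its values were seen, as the only 1 of 11 listed glucocorticoid response genes whose 3 libraries stood in the same order as those of Zbtb16 in each of the 4 groups. Its levels were 6.47, 22.2 and 14.84 CPM on NCD at RT, 5.963, 32.6 and 25.12 CPM on NCD at 4 °C, 5.347, 16.57 and 35.44 CPM on HFD at RT and 44.34, 10.39 and 17.81 CPM on HFD at 4 °C. Of the 16736 other genes tested, 46 (0.275%) shared this order in all 4 groups. Fkbp5 was not called in the cold (log2 fold change 0.55 on NCD and 0.32 on HFD). Since the libraries differ from each other in muscle content and depth as well, the source of this variation was not tested.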
